A study of Mus musculus with 90 samples.

Results

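Peak lists from 5 ChIP-seq libraries of 1 mouse embryonic stem cell line were read at the loci of 6 genes of the pluripotency network, Pou5f1, Sox2, Nanog, Klf4, Esrrb and Dppa3, each taken with 20 kb on either side of its span in mouse build mm9. The windows held 161 of the 141580 listed peaks. These were 24 of the 25754 peaks of H3K4me3 replicate 1, 19 of the 19912 of H3K4me3 replicate 3, 34 of the 25982 found with Mll2 serum 9172, 31 of the 26388 found with Mll2 serum 9175 and 53 of the 43544 Menin peaks. All 5 libraries came from V6.5 cells, a mouse embryonic stem cell line labelled wild type and grown in serum with LIF. The 2 H3K4me3 libraries were made with homemade antibody 28 from cells infected with a lentiviral hairpin against GFP, a control sequence. Each Mll2 library was made with a different homemade serum from cells with no hairpin in their labels, and the same holds for the single Menin library, made with a Bethyl antibody. The series has 90 samples in all, and its knockdown, mutant, rescue, RNA-seq and 4C-seq libraries were not analysed here, so no genotype or treatment was compared.

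H3K4me3, trimethylation of lysine 4 of histone H3, marks the start regions of active and poised genes. Mll2 (gene symbol Kmt2b) is a methyltransferase of a COMPASS-like complex, and it carries a CXXC domain that binds DNA with unmethylated CpG. Menin is a subunit shared by the Mll1 and Mll2 complexes. In embryonic stem cells the transcription factors Oct4, Sox2 and Nanog bind many of each other's regulatory regions and hold the cells in the pluripotent state, with Klf4 and Esrrb as further members of the same circuit and Dppa3 as a gene shared with the early germ line.

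The promoters of the genes differ widely in how many CpG dinucleotides they offer, which is why their sequences are shown before the peaks. They are from RefSeq, build GRCm38.p6, and run from 250 bases before to 50 bases after the annotated start, on the coding strand, with each CG in capitals. Coordinates are those of GRCm38.p6 and cannot be laid on the mm9 peaks. The sequences are of Klf4 at chr4:55532426-55532725 (minus strand), Sox2 at chr3:34649745-34650044 (plus), Pou5f1 at chr17:35505782-35506081 (plus), Nanog at chr6:122707239-122707538 (plus), and the first and second RefSeq starts of Esrrb at chr12:86360867-86361166 and chr12:86421394-86421693 (both plus).
Klf4: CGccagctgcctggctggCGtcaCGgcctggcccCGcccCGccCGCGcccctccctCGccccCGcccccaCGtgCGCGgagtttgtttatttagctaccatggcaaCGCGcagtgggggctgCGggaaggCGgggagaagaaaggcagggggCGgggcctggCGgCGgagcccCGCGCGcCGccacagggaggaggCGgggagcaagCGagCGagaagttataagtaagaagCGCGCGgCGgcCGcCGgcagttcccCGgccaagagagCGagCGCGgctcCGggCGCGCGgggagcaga
Sox2: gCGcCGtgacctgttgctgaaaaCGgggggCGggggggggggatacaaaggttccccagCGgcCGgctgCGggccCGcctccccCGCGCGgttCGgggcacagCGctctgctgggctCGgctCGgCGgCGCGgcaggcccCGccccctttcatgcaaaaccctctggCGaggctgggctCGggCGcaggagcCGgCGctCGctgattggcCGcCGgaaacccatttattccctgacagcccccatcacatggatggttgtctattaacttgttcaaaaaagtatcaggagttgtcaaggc
Pou5f1: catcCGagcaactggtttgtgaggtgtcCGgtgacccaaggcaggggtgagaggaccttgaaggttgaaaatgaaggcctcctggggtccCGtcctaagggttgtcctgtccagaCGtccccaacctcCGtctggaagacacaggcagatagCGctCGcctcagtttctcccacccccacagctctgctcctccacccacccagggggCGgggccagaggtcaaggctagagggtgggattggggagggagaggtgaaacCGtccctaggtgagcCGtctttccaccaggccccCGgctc
Nanog: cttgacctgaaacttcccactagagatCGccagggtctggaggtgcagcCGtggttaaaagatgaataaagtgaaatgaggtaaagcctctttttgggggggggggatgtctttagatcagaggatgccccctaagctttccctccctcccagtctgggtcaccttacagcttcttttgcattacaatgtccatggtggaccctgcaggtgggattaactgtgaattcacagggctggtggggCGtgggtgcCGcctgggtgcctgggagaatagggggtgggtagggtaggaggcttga
Esrrb first start: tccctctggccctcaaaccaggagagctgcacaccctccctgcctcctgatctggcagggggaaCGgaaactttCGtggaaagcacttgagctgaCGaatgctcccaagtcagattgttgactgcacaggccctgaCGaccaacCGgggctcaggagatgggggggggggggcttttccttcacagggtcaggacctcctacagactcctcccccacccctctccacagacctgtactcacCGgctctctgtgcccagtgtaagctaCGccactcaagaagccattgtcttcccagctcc
Esrrb second start: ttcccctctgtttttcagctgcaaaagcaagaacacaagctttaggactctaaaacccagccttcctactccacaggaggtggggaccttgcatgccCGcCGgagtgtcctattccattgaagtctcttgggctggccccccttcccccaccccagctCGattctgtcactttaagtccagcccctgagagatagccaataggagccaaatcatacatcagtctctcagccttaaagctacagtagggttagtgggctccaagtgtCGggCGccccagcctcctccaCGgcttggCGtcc
Klf4 had 40 CG in its 300 bases, at percentile 96.3 of the 32851 promoters in the RefSeq table, and Sox2 had 27, at percentile 85.2. Pou5f1 had 11 at its first start, at percentile 59.5, and 6 at a start 2.8 kb downstream. Each of the 2 Esrrb starts had 7, the median of all promoters. Nanog had 4, at percentile 34.7. The CG count thus separated Klf4 and Sox2, both above the upper quartile of 20, from Pou5f1, Esrrb and Nanog, which lay between the quartiles of 3 and 20. Dppa3 was not matched.

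Short motifs were searched on both strands of the same windows. The octamer-type core TTTGCAT was in the Nanog and Sox2 promoters and in 4.63% of all promoters, and the Sox-type core ACAATG was in Nanog, in the first Esrrb start, in the second Pou5f1 start and in 12.6% of all promoters. The GC-box core GGGCGG occurred 3 times in Klf4, 2 times in Sox2 and 1 time in Pou5f1, and in 35.7% of promoters. Matches on a strand that overlap each other, as in Klf4, were counted once. TATAAA was in none of the promoters of these genes and in 13.6% of all promoters. In Nanog the first 2 motifs stood 1 base apart. They are shown here in capitals together with the T between them, with 8 bases on each side.
Nanog stretch: cagcttctTTTGCATTACAATGtccatggt
The capitals cover chr6:122707414-122707427 (GRCm38.p6, plus strand), and their first base lies at -75 from the first and -151 from the second RefSeq start of Nanog. This 14-base run was found in the promoters of no other gene of the table, while 0.813% of promoters held both motifs somewhere. A match of letters describes the sequence and is no evidence of binding.

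At the gene starts, 5 of the 6 loci carried H3K4me3 in both libraries, Mll2 with both sera and Menin. The exception was Esrrb. A peak was counted at a start if it overlapped the 1 kb on either side of the gene end that the strand makes the start. Among all 18894 H3K4me3 regions, merged stretches that held a peak of both libraries, 80.8% held Mll2 of both sera and 88.8% held Menin, so Mll2 and Menin at marked starts was the common state and the count of 5 lay near it. At a fold of at least 10, Mll2 of both sera was left at 3 starts (Pou5f1, Sox2 and Klf4) and Menin at 2 (Pou5f1 and Sox2). H3K4me3 in both libraries was left at 4. The median fold of the whole list was 11.2 for serum 9172, 12.2 for serum 9175 and 9.19 for Menin, so this limit falls near the middle of those lists. The shares of all H3K4me3 regions above are at no such limit, and those at a fold of at least 10 were not computed. The share of all gene starts with H3K4me3 was not computed, because no mm9 annotation was used here. RNA was not read, so the cell type was checked against no expression marker.

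Pou5f1, which encodes Oct4, had a broad H3K4me3 domain at its start. In replicate 1 the peak held 1717 tags over 5352 bp (chromosome 17 from 35641354 to 35646705), or 321 tags per kb, at a fold enrichment of 35.1 and rank 10391 of 25754 by fold. In replicate 3 it held 968 tags over 5606 bp, or 173 tags per kb, at a fold of 46.9 and rank 7318 of 19912. Width placed the domain far higher than height did, at rank 220 in replicate 1 and 49 in replicate 3. Mll2 serum 9172 gave 241 tags over 3202 bp, or 75.3 tags per kb, at a fold of 14.3 and rank 9301 of 25982. Serum 9175 gave 104 tags over 2240 bp, or 46.4 tags per kb, at a fold of 15.6 and rank 9709 of 26388, and a second peak of 24 tags beside it. Menin gave 362 tags over 5063 bp, or 71.5 tags per kb, at a fold of 13.7 and rank 7032 of 43544. H3K4me3 and Mll2 at Pou5f1 lay between percentiles 59.6 and 64.2 of their own lists by fold, and Menin at 83.8.

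Sox2, the partner of Oct4 on composite DNA elements, lay in a very wide H3K4me3 domain. Replicate 1 had 4167 tags over 9758 bp (chromosome 3 from 34546714 to 34556471), or 427 tags per kb, at a fold of 73.8 and rank 2076. Replicate 3 had 1830 tags over 6675 bp, or 274 tags per kb, at a fold of 72.1 and rank 3157. The domain ranked 6 by width in replicate 1 and 19 in replicate 3, and it extended past the short single span of the gene on both sides. Serum 9172 gave 245 tags over 3212 bp, or 76.3 tags per kb, at a fold of 15.3 and rank 8670. Serum 9175 gave 200 tags over 3656 bp, or 54.7 tags per kb, at a fold of 18.2 and rank 7909. Menin was listed as 2 neighbouring peaks at the start, of 119 tags over 1652 bp (fold 14.3) and of 152 tags over 1712 bp, or 88.8 tags per kb (fold 14.9, rank 5170). The latter was the Menin peak with the highest tags per kb at any of the 6 genes, at rank 1477 of 43544 by that measure.

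Nanog, a homeodomain factor of the core circuit, had H3K4me3 above, and Mll2 and Menin below, the middle of their lists by fold. Replicate 1 had 2000 tags over 5126 bp (chromosome 6 from 122655988 to 122661113), or 390 tags per kb, at a fold of 77.0 and rank 1622. Replicate 3 had 908 tags over 4508 bp, or 201 tags per kb, at a fold of 41.0 and rank 8338. The fold thus fell from percentile 93.7 to 58.1 between libraries, while the depth-scaled density, tags per kb for every 1000000 kept tags of the library, was close, at 17.8 and 16.4. The background implied by tags per kb over fold was 0.847 times the list median in replicate 1 and 1.3 times in replicate 3. Serum 9172 gave 55 tags over 1095 bp, or 50.2 tags per kb, at a fold of 9.99 and rank 14545. Serum 9175 gave 60 tags over 1457 bp, or 41.2 tags per kb, at a fold of 10.3 and rank 16149. By fold both lay below the middle of their lists, at percentiles 44.0 and 38.8, and by width above it, at 67.1 and 77.8. Menin gave 36 tags over 1031 bp, or 34.9 tags per kb, at a fold of 4.71 and rank 43280 of 43544, percentile 0.572. By tags per kb the same Menin peak stood at percentile 37.7, and its implied background was 1.75 times the list median. The part of that background in the low fold was not tested. A second Menin peak, of 33 tags over 895 bp, had a higher fold of 8.01, percentile 28.4. It overlapped the H3K4me3 region of Nanog but ended at -1022 bp, just outside the 1 kb at the start.

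Klf4, a zinc finger factor of the Krüppel family and one of the reprogramming factors, had the densest H3K4me3 of the 6 genes. Replicate 1 listed 2 peaks at the start, of 2837 tags over 4732 bp (chromosome 4 from 55540773 to 55545504), or 600 tags per kb, at a fold of 71.4 and rank 2445, and of 724 tags over 1721 bp at a fold of 42.8. Replicate 3 listed 1 peak of 1814 tags over 5478 bp, or 331 tags per kb, at a fold of 93.2 and rank 1124. By tags per kb they ranked 181 of 25754 and 1192 of 19912. Serum 9172 gave 163 tags over 1724 bp, or 94.5 tags per kb, at a fold of 19.4 and rank 5681, beside a smaller peak of 31 tags. Serum 9175 gave 199 tags over 2839 bp, or 70.1 tags per kb, at a fold of 31.0 and rank 2137. Menin gave 260 tags over 4332 bp, or 60 tags per kb, at a fold of 8.94 and rank 23398. Menin at Klf4 stood at percentile 43.5 by fold and 80.4 by tags per kb, with an implied background of 1.59 times the list median, so its place in the list depended on the measure.

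Dppa3, which encodes the maternal and germ cell protein Stella, was the weakest of the 5 marked starts in H3K4me3. Replicate 1 had 390 tags over 2856 bp (chromosome 6 from 122576137 to 122578992), or 137 tags per kb, at a fold of 25.1 and rank 12396. Replicate 3 had 41 tags over 972 bp, or 42.2 tags per kb, at a fold of 9.18 and rank 16920. As a ratio, the 2 libraries differed here more than at any other of the 6 genes, with 6.22 (95% Poisson interval 5.62 to 6.87) against 3.44 (2.47 to 4.66) in depth-scaled density. Serum 9172 gave 15 tags over 367 bp, or 40.9 tags per kb, at a fold of 7.46 and rank 20434. Serum 9175 gave 2 peaks of 26 tags each, the upstream one over 735 bp, or 35.4 tags per kb, at a fold of 8.97 and rank 18428. Menin gave 122 tags over 2934 bp, or 41.6 tags per kb, at a fold of 7.57 and rank 33683. Menin covered 99.0% of the H3K4me3 region of Dppa3, the highest share of the 6 genes, although at a low fold.

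Esrrb, an orphan nuclear receptor, had no peak of any list within 1 kb of the start that its span in mm9 gives. The nearest was a Menin peak of 13 tags, 4.48 kb downstream. Of its marked sites, the one with most H3K4me3 tags was taken to stand for the locus below, since no peak marks the start. This choice favours a wide, strongly marked region. The site lay inside the gene, 106.16 to 120.18 kb from that start, on chromosome 12 from 87808157 to 87822181. Replicate 1 listed there a single peak of 3621 tags over 14025 bp, or 258 tags per kb, at a fold of 77.4 and rank 1574. It was the widest peak of that list. Replicate 3 listed 1201 tags over 8878 bp, or 135 tags per kb, at a fold of 84.5 and rank 1804, which was rank 4 by width, and a further peak of 59 tags. Mll2 was thin across this domain, with 3 peaks of serum 9172, of 35, 42 and 24 tags, and 2 of serum 9175, of 25 tags each. The highest folds were 7.35 (rank 21940) and 8.83 (rank 19827), percentiles 15.5 and 24.9. Menin was broken into 8 peaks of 17 to 43 tags, the strongest with 37 tags over 807 bp, or 45.8 tags per kb, at a fold of 12.7 and rank 8501, percentile 80.4. In RefSeq Esrrb overlaps the long noncoding gene Gm40483, and where that gene lies relative to the domain was not examined.

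A second marked site inside Esrrb, 59.62 to 62.45 kb from the start in mm9, was listed in all 5 libraries. It had 160 and 84 H3K4me3 tags at folds of 12.1 and 8.26, Mll2 folds up to 10.4 and 11.4, and 123 Menin tags in 2 peaks. In RefSeq the second Esrrb start lies 60.5 kb downstream of the first. That distance is from GRCm38.p6 and the peaks are on mm9, so whether the site covers that start was not tested. The CG counts of the 2 RefSeq starts were equal, at 7.

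**Figure D1:**
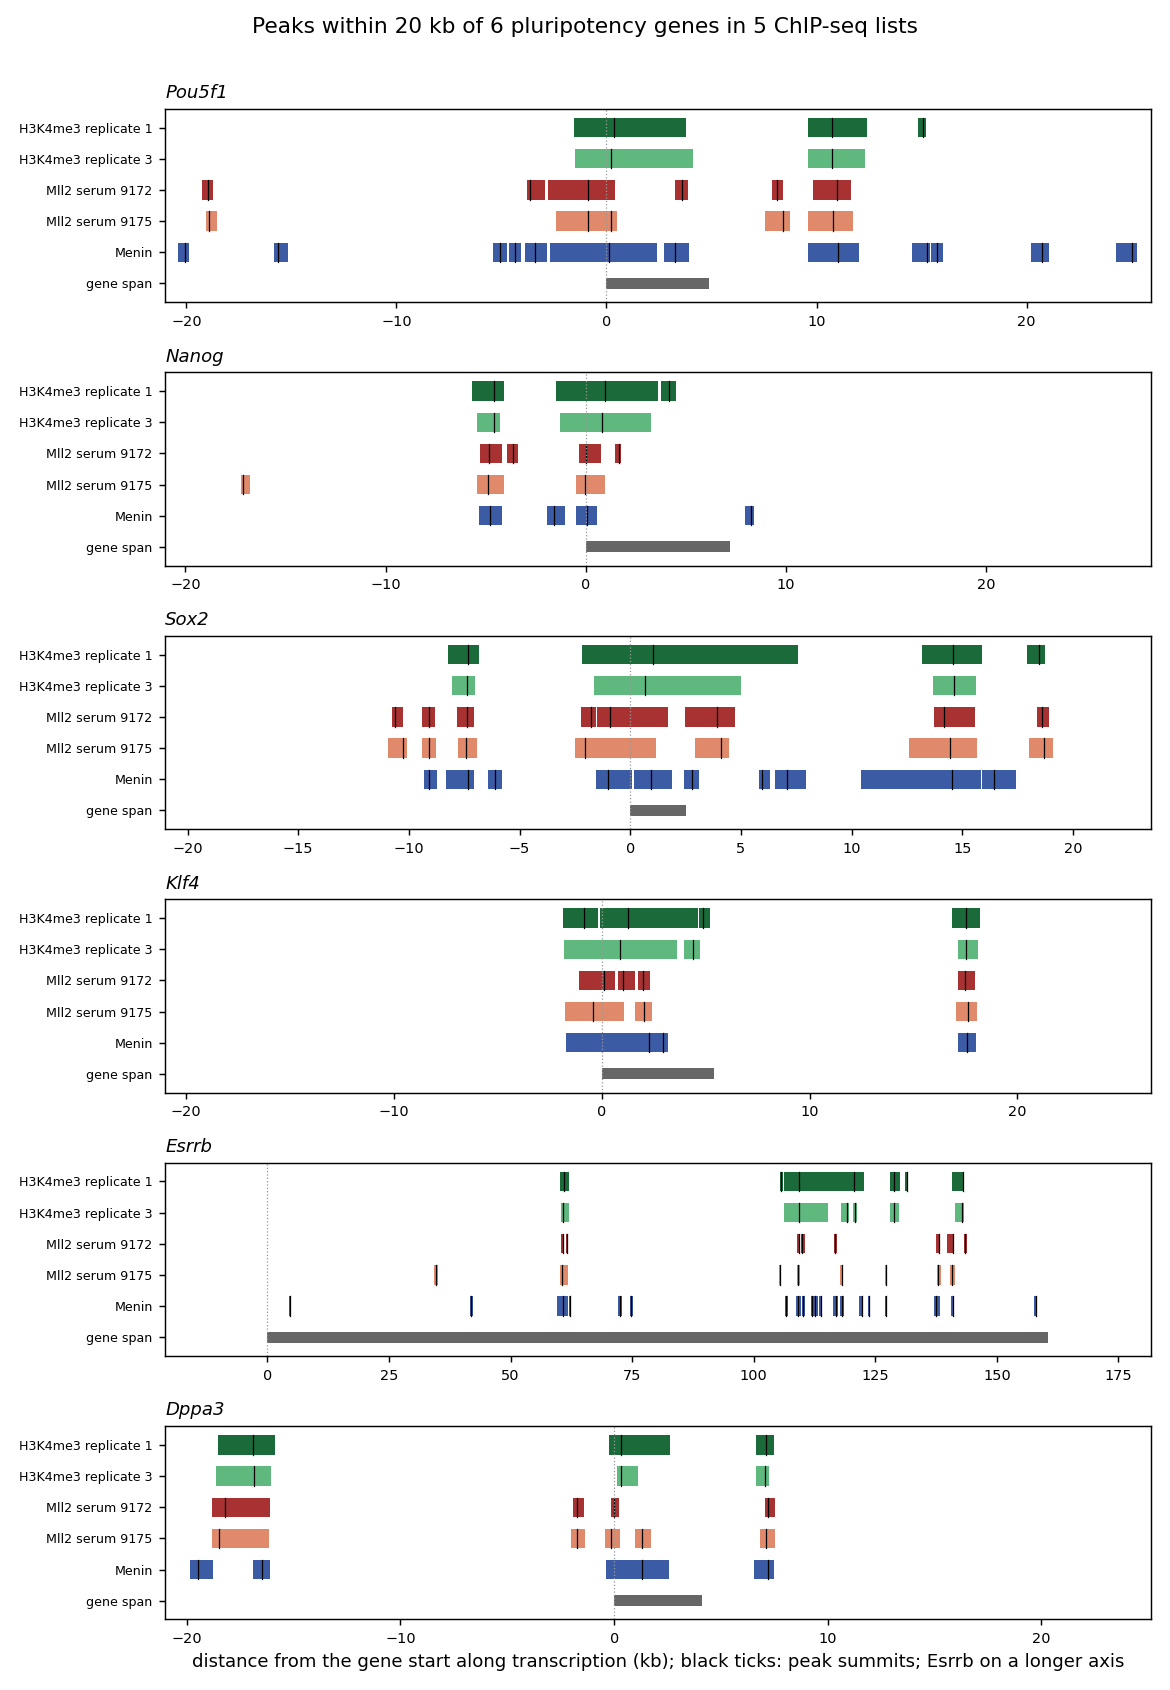
Peaks of the 5 lists at the 6 loci, drawn to scale against distance from the gene start in kb (horizontal axis), with 1 row per library and the gene body marked. Peaks of all 5 lists sit at the starts of Pou5f1, Sox2, Nanog, Klf4 and Dppa3, while the broad H3K4me3 of Esrrb lies from 106.16 kb into the gene.

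The H3K4me3 domains of these genes were wide. Measured over the merged regions of both libraries, they spanned 14025 bp at Esrrb (rank 1 of 18894 by width), 9758 bp at Sox2 (rank 7), 7097 bp at Klf4 (rank 49), 5645 bp at Pou5f1 (rank 183), 5126 bp at Nanog (rank 299) and 2856 bp at Dppa3 (rank 3292). Thus 5 of 6 loci were wider than 5000 bp, against 1.81% of all H3K4me3 regions, whose median width was 1912 bp. The Esrrb region was picked as the site with most H3K4me3 tags, which favours width, so its rank is a description of that choice. Of the 5 regions taken at gene starts, 4 were wider than 5000 bp, and Dppa3, the exception, was above the median. Within single lists, 4 of 6 loci had a peak over 5000 bp in replicate 1 (Pou5f1, Nanog, Sox2 and Esrrb), against 1.25% of its peaks. In replicate 3 the 4 were Pou5f1, Sox2, Klf4 and Esrrb, against 0.412%. Klf4 and Nanog were therefore above that width in 1 library each, and Pou5f1, Sox2 and Esrrb in both. A locus can hold several peaks, so shares of loci and shares of single peaks differ in unit. The windows held 24 peaks in replicate 1 and 19 in replicate 3. The genes were chosen with these data in view, so the counts describe these 6 loci and are no test.

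**Figure D2:**
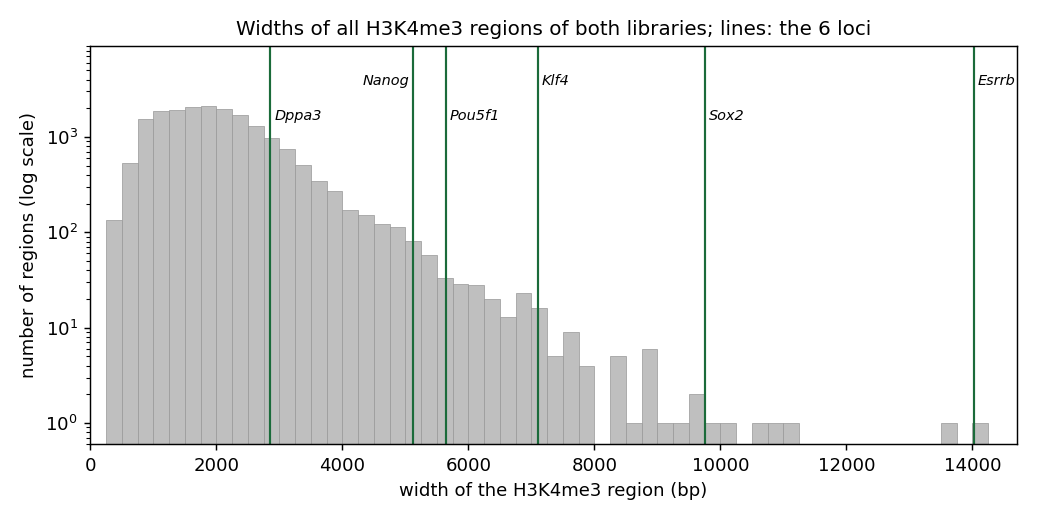
Widths of H3K4me3 regions in bp (horizontal axis) over the 18894 regions of both libraries, with the number of regions on a logarithmic vertical axis and the 6 loci marked. Esrrb, Sox2, Klf4, Pou5f1 and Nanog stand past 5000 bp, and Dppa3 at 2856 bp.

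The density of H3K4me3 gave a clear order. As depth-scaled tags per kb in the peak of highest fold at each start, or at the site inside Esrrb, replicate 1 gave 27.3 (95% Poisson interval 26.3 to 28.4) for Klf4 and 19.5 (18.9 to 20.1) for Sox2. Nanog followed with 17.8 (17.0 to 18.6) and Pou5f1 with 14.6 (13.9 to 15.3). Esrrb had 11.8 (11.4 to 12.2) and Dppa3 6.22. Replicate 3 put the genes in the same order, with 27.0, 22.3, 16.4, 14.1, 11 and 3.44. Intervals of neighbours overlapped in neither library, so all 15 pairs were told apart. The intervals cover counting error only, and tags per kb are a mean over the whole peak, so the Esrrb value is spread over the widest domain. These are populations of cells: fewer cells with the mark and less mark per cell cannot be told apart.

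Mll2 levels at the same loci were mostly not told apart. Serum 9172 gave 4.83 (4.11 to 5.63) for Klf4, 3.89 (3.42 to 4.41) for Sox2 and 3.84 (3.37 to 4.36) for Pou5f1. It gave 2.64 (1.84 to 3.68) for Esrrb, 2.56 (1.93 to 3.34) for Nanog and 2.09 (1.17 to 3.44) for Dppa3. Serum 9175 gave 5.10 (4.42 to 5.86) for Klf4, 3.98 for Sox2, 3.38 for Pou5f1, 3.00 for Nanog, 2.65 for Esrrb and 2.57 for Dppa3. Of 15 pairs, 3 were told apart by both sera: Klf4 was above Nanog, Esrrb and Dppa3. No neighbours in the order were told apart, and Nanog and Esrrb changed places between sera. The Mll2 peaks rest on 15 to 245 tags, against 41 to 4167 for H3K4me3, which makes their intervals wider. In the single Menin library the order was another one, with 7.69 (6.51 to 9.01) at Sox2, 6.19 (5.57 to 6.86) at Pou5f1, 5.20 (4.58 to 5.87) at Klf4, 3.97 at Esrrb, 3.60 at Dppa3 and 3.02 (2.12 to 4.19) at Nanog. Menin had no second library to set its order against.

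**Figure D3:**
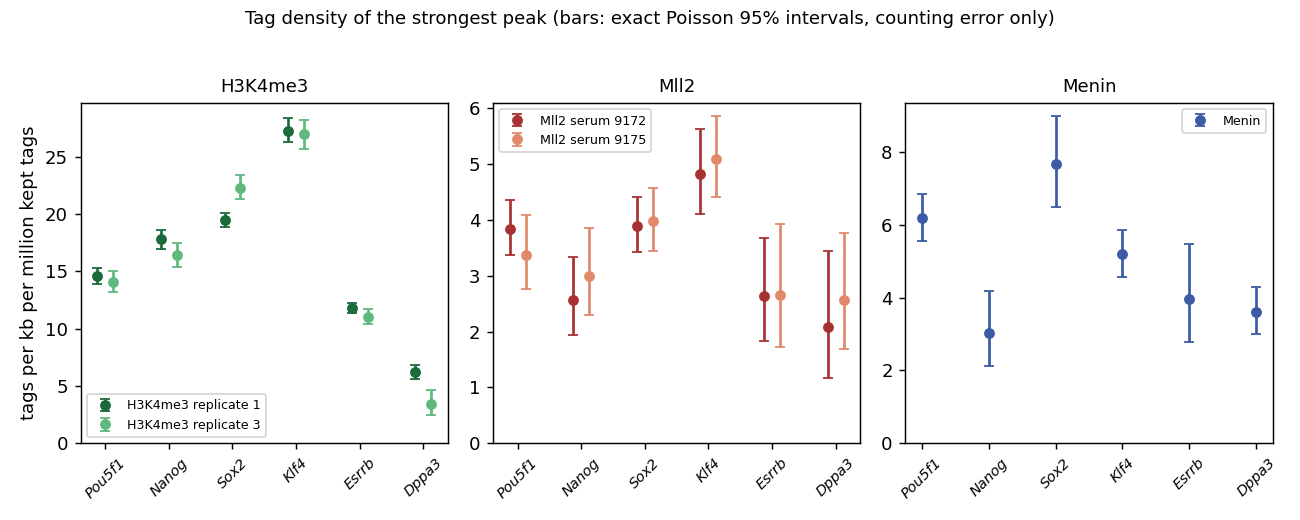
Depth-scaled tags per kb (for every 1000000 kept tags) of the strongest peak at each locus (vertical axes) for the 6 genes in each library, as points with exact 95% Poisson intervals that cover counting error only. H3K4me3 runs from 27.3 at Klf4 to 6.22 at Dppa3 in replicate 1, and the Mll2 points lie between 2.09 and 5.10.

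Within each list the loci stood at very different heights. By fold enrichment Sox2 was high in all 5 lists, at percentiles 91.9 and 84.1 for H3K4me3, 66.6 and 69.9 for Mll2 and 87.9 for Menin. Klf4 was at 90.5 and 94.3, 77.5 and 91.6, and 43.5. Nanog was at 93.7 and 58.1, 44.0 and 38.8, and 0.572, or 28.4 by the Menin peak just outside 1 kb. Pou5f1 was at 59.6 and 63.2, 64.2 and 63.2, and 83.8. The Esrrb site was at 93.9 and 90.9 for H3K4me3 and only at 15.5 and 24.9 for Mll2. Dppa3 was near the middle in H3K4me3 replicate 1, at 51.9, and low in the other lists, at 15.0 in replicate 3, 18.6 and 27.6 for Mll2 and 22.4 for Menin. Over the 5 starts the median percentile was 90.5 and 63.2 in the H3K4me3 lists, 64.2 and 63.2 in the Mll2 lists and 43.5 in the Menin list. The Menin median was 80.4 by tags per kb and 93.8 by score, so the side of the middle on which it fell depended on the measure. Percentiles compare a peak with its own list and are not compared in size between antibodies.

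**Figure D4:**
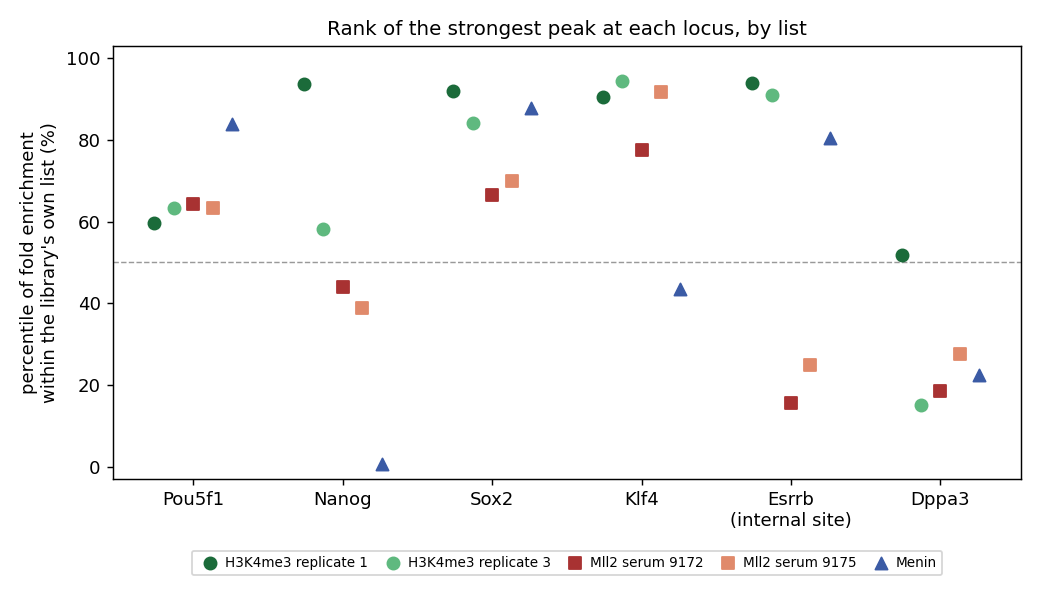
Percentile of each locus's strongest peak by fold enrichment within its own list (vertical axis, 100 is the strongest) for the 6 genes, with 1 point per library. The Esrrb site, picked for its H3K4me3 tags, is above 90 in both H3K4me3 lists and at 15.5 and 24.9 in the Mll2 lists. Nanog reaches 0.572 in the Menin list, by the peak within 1 kb of its start.

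The share of each H3K4me3 region that Mll2 peaks covered ranged widely. With serum 9172 and then 9175 it was 62.6% and 50.4% at Sox2, 46.0% and 35.8% at Pou5f1, 43.8% and 51.1% at Klf4, 27.6% and 28.4% at Nanog, 12.9% and 44.7% at Dppa3 and 14.9% and 9.44% at the Esrrb site. Nanog and the Esrrb site were low with both sera and Dppa3 with 1 of them. The medians over all H3K4me3 regions were 52.2% and 60.9%, and over regions wider than 5000 bp 48.9% and 51.1%. Per 100 H3K4me3 tags of replicate 1, after scaling to kept tags, the Mll2 peaks held 3.12 and 2.20 tags at the Esrrb site, which was picked for its H3K4me3 tags and so for a low ratio, and 3.86 and 4.79 at Nanog, against medians of 16.7 and 22.7 over all regions and 12.8 and 13.7 over those wider than 5000 bp. Sox2 had 10.8 and 9.92, Klf4 6.80 and 10.3, and Pou5f1 17.4 and 11.9. Dppa3 had 4.31 and 21.3, so its sera differed. Against replicate 1 all 6 loci were below the median of all regions with serum 9175 and 5 of 6 with serum 9172, where Pou5f1 was the exception. Against replicate 3, with medians of 18.4 and 25.0, it was Dppa3 that was above with both sera, at 22.9 and 113 on the 41 tags of that library, while Pou5f1 was below, at 17.3 and 11.8. Such ratios of summed tags move with how much of a region was called, which the covered shares above show.

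Menin covered 90.8% of the Pou5f1 region, 69.3% of Klf4, 57.5% of Sox2, 46.6% of Esrrb and 29.7% of Nanog, against a median of 72.0% over all regions. Over regions wider than 5000 bp, as these are, the median was 68.6%, with quartiles of 43.8% and 86.6%. Klf4, Sox2 and Esrrb lay between those quartiles, Pou5f1 above and Nanog below. Its coverage was often broken up: 5 of the 6 regions held at least 2 Menin peaks, with 8 at Esrrb and 5 at Sox2, against 12.0% of all H3K4me3 regions. Wider regions can hold more peaks, and the part of width in this count was not tested.

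In the peak of highest fold that each list had at a start, the Mll2 summit lay upstream of the H3K4me3 summit at all 5 marked starts. Positions are given in bp from the start, negative ones upstream, with serum 9172 and replicate 1 first. At Nanog the Mll2 summits were at 3 and -32, at the start itself, while the H3K4me3 summits were at 977 and 793. At Dppa3 the Mll2 summits were at -23 and -137 and those of H3K4me3 at 332 and 315. At Pou5f1 both sera peaked further upstream, at -858 and -883, with H3K4me3 at 377 and 203. At Sox2 the sera lay apart, at -920 and -2051, with H3K4me3 at 1007 and 659. At Klf4 they were on either side of the start, at 100 and -410, with H3K4me3 at 1245 and 859. Between these peaks the distance was 338 to 3058 bp. The other peaks listed at the starts did not all keep this order. Mll2 summits of serum 9175 lay at 1288 at Dppa3 (26 tags, as many as in the peak of highest fold) and at 204 at Pou5f1 (24 tags), and one of serum 9172 at 1000 at Klf4 (31 tags). The smaller H3K4me3 peak of replicate 1 at Klf4, with 724 tags, had its summit at -839, upstream of both Mll2 summits. Further Mll2 peaks lay in the same H3K4me3 regions, beyond 1 kb from the start. Both sera had summits downstream of both H3K4me3 summits at Sox2, at 3899 and 4092, and at Klf4, at 1993 and 2011. Serum 9172 alone had them at Pou5f1, at 3606, and at Nanog, at 1665. Another serum 9172 peak at Sox2 had its summit upstream, at -1791. Again for the peak of highest fold, the Menin summit was downstream of both Mll2 summits at all 5 starts, at 115 for Pou5f1, 66 for Nanog, 947 for Sox2, 1295 for Dppa3 and 2294 for Klf4. The other Menin peak at the Sox2 start, nearly as high in fold, had its summit at -1018, upstream of the serum 9172 summit. At Nanog a Menin peak of higher fold, just outside 1 kb, had its summit at -1598, upstream of both Mll2 summits. The Menin peaks beyond 1 kb in the H3K4me3 regions of Pou5f1, Sox2 and Klf4 had summits downstream. A background over all gene starts was not computed, since no mm9 annotation was used, and the starts given are rounded to 100 bp. At the Esrrb site the serum 9172 summit, at 109271 bp, lay between those of H3K4me3 at 109264 (replicate 3) and 109379 bp (replicate 1), so the order differed between the H3K4me3 libraries there. Of the 2 serum 9175 peaks in the domain, with 25 tags each, the one with a fold of 8.49 had its summit at 109183 bp, upstream of both H3K4me3 summits, and the one with a fold of 8.83 at 118085 bp.

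**Figure D5:**
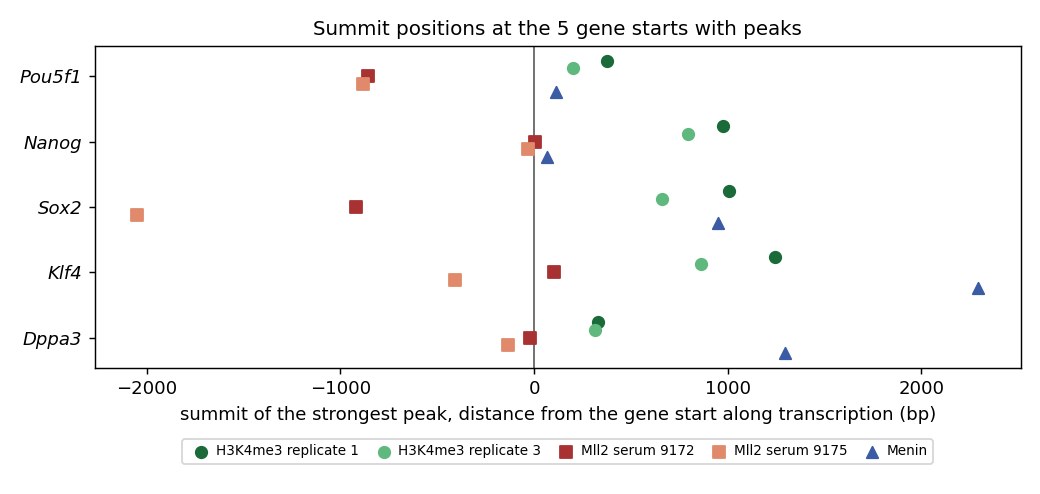
Distance from the gene start to the summit of the peak of highest fold in each list, in bp (horizontal axis, positive is downstream) at the 5 marked starts, with 1 symbol per library. In these peaks H3K4me3 summits lie at 203 to 1245 bp and Mll2 summits at -2051 to 100 bp. The other peaks listed at the starts, and those further out in the same H3K4me3 regions, are not drawn.

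Away from the starts the windows held 43 distal sites, where a site is a set of peaks of any list that overlap by at least 1 bp. Menin was the most frequent mark, at 31 of them (72.1%), followed by Mll2 of both sera at 17 (39.5%) and H3K4me3 of both libraries at 12 (27.9%). This order depended on the limit for a peak: at a score of at least 100 the counts were 10, 9 and 9, and at a fold of at least 10 they were 9, 4 and 6. Among all 52840 merged sites of the 5 lists, starts included and with no such limit, the shares were 76.8%, 36.5% and 35.5%. Sites listed in all 5 libraries numbered 10 (23.3%, against 28.0%), those listed for Menin alone 15 (34.9%, against 33.3%), and those in a single list 20 (46.5%, against 48.6%). These shares were near the background. Mll2 of both sera without any H3K4me3 was found at 6 sites (14.0%, against 5.47%), namely 2 at Pou5f1, 2 at Sox2, 1 at Esrrb and 1 at Dppa3. The counts are small, and the background includes starts.

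Most distal peaks were weak. The 18 of H3K4me3 replicate 1 held a median of 130 tags (16 to 3621) and the 14 of replicate 3 a median of 72 tags (22 to 1201), where the highest values are the Esrrb domain. The 28 of serum 9172 had 14 to 215 tags, the 24 of serum 9175 had 13 to 153, and the 47 of Menin had 13 to 327. Their median fold was 9.00 and 11 for H3K4me3, 8.95 and 9.10 for Mll2 and 8.19 for Menin. A few distal sites nonetheless came near or above the start of their gene in some lists or by some measures.

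At Pou5f1, with 12 distal sites, the site 9.58 to 12.43 kb downstream was in all 5 lists. It had 596 and 291 H3K4me3 tags at folds of 33.0 and 19.2, Mll2 tags of 111 and 86 at folds of 12.7 and 13.9, and 140 Menin tags at a fold of 11.1. In H3K4me3 replicate 1 that fold was close to the 35.1 at the start, while in replicate 3 the start had 46.9. The depth-scaled H3K4me3 density was below that of the start in both libraries. It was 9.54 (8.79 to 10.3) against 14.6 (13.9 to 15.3) in replicate 1. In replicate 3 it was 8.75 (7.78 to 9.82) against 14.1 (13.2 to 15.0), so no intervals overlapped. Of the other 11 distal sites, 7 were Menin alone.

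At Sox2, 5 of 6 distal sites carried Mll2 of both sera. The site 10.43 to 17.41 kb downstream was in all 5 lists, with 319 and 110 H3K4me3 tags, 117 and 153 Mll2 tags at folds of 12.7 and 14.4, and 398 Menin tags in 2 peaks, one of them 5425 bp wide. The site from -8.32 to -6.84 kb was also in all 5 lists, with 131 and 59 H3K4me3 tags, 40 and 30 Mll2 tags and 85 Menin tags. Upstream of it, the sites starting at -9.41 and -10.93 kb carried Mll2 of both sera with no H3K4me3, at folds of 11.6 and 9.50 and of 7.46 and 8.97, and the nearer of them had Menin at a fold of 11.9. In RefSeq Sox2 overlaps the long noncoding gene Sox2ot.

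At Nanog, the site from -5.70 to -4.07 kb was in all 5 lists and had denser Mll2 than the start by its point values with both sera. Its Mll2 peaks held 88 and 71 tags at folds of 11.7 and 13.1, against 55 and 60 tags at folds of 9.99 and 10.3 at the start. The depth-scaled densities were 4.00 (3.21 to 4.93) against 2.56 (1.93 to 3.34) with serum 9172, and 3.83 (2.99 to 4.83) against 3.00 (2.29 to 3.86) with serum 9175, so the intervals overlapped and the 2 sites were not told apart. The H3K4me3 of the upstream site was low, with 113 and 42 tags at folds of 7.80 and 8.59. Its Menin peak of 45 tags had a fold of 3.58, rank 43535 of 43544. Of the other 4 distal Nanog sites each was in a single list.

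At Dppa3, the upstream site from -19.86 to -15.88 kb carried denser H3K4me3 than the start itself. H3K4me3 had 692 and 310 tags at folds of 26.9 and 21.7, against 390 and 41 tags at folds of 25.1 and 9.18 at the start. The depth-scaled densities were 11.9 (11.1 to 12.8) against 6.22 in replicate 1 and 9.84 against 3.44 in replicate 3, with no overlap of intervals in either. Mll2 had 215 and 110 tags at folds of 18.6 and 9.10. Its density at the site was above that at the start with serum 9172, at 4.04 (3.52 to 4.62) against 2.09 (1.17 to 3.44), and not told apart with serum 9175. Menin had 77 tags in 2 peaks with a highest fold of 11.2. The site 6.56 to 7.52 kb downstream was in all 5 lists with 49 and 22 H3K4me3 tags, and the site from -2.03 to -1.36 kb had Mll2 of both sera only, at folds of 7.05 and 12.1. In RefSeq gene order Gdf3 is the next protein-coding gene upstream of Dppa3 and Nanog the next downstream. Whether the upstream site covers the start of a neighbour was not examined.

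Klf4 had 1 distal site, 16.85 to 18.21 kb downstream, and all 5 lists held it. It had 250 and 78 H3K4me3 tags at folds of 35.3 and 20.9, 47 and 48 Mll2 tags at folds of 9.70 and 16.3, and 48 Menin tags at a fold of 11.5. At this site Menin had a higher fold than the 8.94 at the Klf4 start, with 56.3 against 60 tags per kb.

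Beside its domain, the long Esrrb window held another 15 sites, of which 2 were in all 5 lists. One was described above, and the other was the site 139.84 to 143.82 kb from the start, with 138 and 66 H3K4me3 tags at folds of 4.64 and 6.83, 102 and 29 Mll2 tags and 20 Menin tags. A site 137.10 to 138.46 kb from the start had Mll2 of both sera, at folds of 9.70 and 10.6, and Menin, with no H3K4me3. A pair of H3K4me3 sites, 120.27 to 122.71 kb and 128.04 to 130 kb from the start, had no Mll2, at folds of 8.25 and 7.53 and of 9.75 and 6.95. A further 6 sites were Menin alone, the highest at a fold of 14.9, 74.49 to 75.13 kb from the start.

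The peaks next to the edge of the windows on either side of it were both weak Menin peaks. The peak nearest inside the limit was Menin of Pou5f1, 19865 bp away, with 19 tags and a fold of 8.94, and the nearest outside was Menin of Nanog, 20280 bp away, with 14 tags and a fold of 7.15. The windows covered 0.425 Mb with 56.5 (replicate 1) and 44.7 (replicate 3) H3K4me3 peaks per Mb, 80.1 (serum 9172) and 73.0 (serum 9175) of Mll2 and 124.8 of Menin. That was 4.10, 4.20, 5.76, 5.17 and 5.36 times the number per Mb in the whole lists, over the effective genome size that the file headers give. The gene content of the windows was not set against that of the genome.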

How the data were processed

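Peak lists of 5 ChIP-seq libraries were used, grouped by the title or the antibody in the labels. Per the file headers the authors called peaks with MACS 1.4.2 on mm9, library by library against an input, with a p limit of 1.00e-05 and no more than 1 tag per position, and both Mll2 libraries had the same input. The submitters' processing notes name Bowtie 0.12.9. The deposited tag count is a whole number per peak. The deposited fold is a ratio, of ChIP signal over a MACS background estimate, the deposited score is -10 times the log10 of the MACS p, and the deposited false discovery rate is in percent. These values are the authors' own, used to describe and rank peaks within a list. MACS uses a local or a genome-wide background, so a fold also moves with the background, for which tags per kb over fold is a rough stand-in. Kept tags ran from 11550409 to 21936546 per library, and a site absent from a list was not detected at its depth.

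Peaks were taken within 20 kb of the 6 gene spans, with starts rounded to 100 bp, and those within 1 kb of a start were called promoter peaks and all others distal. Lists were compared by an overlap of at least 1 bp, with Python 3.11.15, pandas 2.3.3 and scipy 1.17.1. The overlap code was tested on simulated lists. Depth-scaled density is tags per kb for every 1000000 kept tags, with an exact 95% Poisson interval, and PCR reads without molecular identifiers are not independent molecules, so it covers counting error only. Loci were told apart where both libraries or sera gave the same order and no intervals overlapped. No test over samples was possible with 1 library per serum and for Menin, and the labels name no separate cultures for the 2 H3K4me3 libraries. All 6 genes of the list are described. The members and lists were chosen with earlier results of these data known. Promoter sequences came from a RefSeq table of GRCm38.p6. Alternatives were other windows, promoter spans, score and fold limits, ranks by other measures, and each library or serum alone.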

Additional observations from a re-analysis of the deposited data

How the results depend on the processing

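Of 83 recomputed values, 50 stayed close to those reported and 33 moved, and the causes were not tested. A count stayed close within a ratio of 1.5. A median percentile stayed close if it moved by less than a limit set from the difference between the 2 libraries or sera. That limit was 19.3 percentile points for H3K4me3 and 0.705 for Mll2, and Menin, with 1 library, was given the wider one. The split of medians into close and moved therefore depends on unequal limits. With a fold of at least 10, H3K4me3 of both libraries was at 4, Mll2 of both sera at 3 and Menin at 2 of the gene starts, in place of 5 each. Distal sites then numbered 6 with H3K4me3, 4 with Mll2 and 9 with Menin, and the windows held 14 and 11 H3K4me3 peaks, 11 and 12 Mll2 peaks (serum 9172 first) and 12 Menin peaks. With a score of at least 100, distal sites numbered 9 with Mll2 and 10 with Menin, and the windows held 17 and 20 Mll2 and 22 Menin peaks. A window of 10 kb left 11 distal Mll2 sites, and one of 50 kb gave 27 with Mll2 and 53 with Menin, and 52 serum 9172 and 81 Menin peaks. The median percentile at the starts by tags per kb was 70.1 (serum 9172), 56.0 (serum 9175) and 80.4 (Menin). By score it was 84.8 for H3K4me3 replicate 3, 90.0 and 70.6 for Mll2 and 93.8 for Menin, and by width 99.7, 91.6, 95.9 and 96.7. With the Esrrb site as a sixth locus, an alternative chosen after seeing the data, the Mll2 medians were 54.1 and 51.0. The H3K4me3 medians were then 91.2 and 73.7, in place of 90.5 and 63.2. The Menin median was 62.0 in place of 43.5, on the other side of the middle of its list. Leaving out either H3K4me3 library left 5 starts marked. No paired analysis was possible because the labels give no second group with peak lists and shared replicate numbers. Depth limits the weak sites: many distal Mll2 and Menin peaks rest on 13 to 40 tags, and a site missing from the shallower library of a pair may lie below its limit of detection.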

Other observations

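Past the 20 kb limit, a broad H3K4me3 peak with more tags than that of the Nanog start was listed in both libraries. Downstream of Nanog, 24639 bp beyond the end of the gene on chromosome 6 from 122689339 to 122694178 (mm9), replicate 1 listed 2247 tags at a fold of 50.7 and replicate 3 listed 1103 tags at a fold of 85.6, with a Menin peak of 38 tags at a fold of 8.20. In RefSeq gene order Slc2a3, which encodes the glucose transporter GLUT3, is the next protein-coding gene downstream of Nanog. Whether the peak lies at its start was not examined. On the other side of Dppa3, 23184 bp away, replicate 1 listed 241 tags at a fold of 31.6 and replicate 3 listed 64 tags at a fold of 17.9.

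Of 19 other pluripotency genes on the list, 10 had a promoter in the RefSeq table. Their CG counts in 300 bases ran from 2 at Nr5a2 to 32 at Klf2, with a median of 12.5, and 8 of the 10 were above the median of 7 of all promoters. Their peaks were not analysed here.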
